A study of Mus musculus with 12 samples.

Results

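The aquaporins are the membrane channels through which water, and for some members glycerol, crosses cells. The 8 aquaporin genes described here (Aqp1, Aqp3, Aqp4, Aqp5, Aqp7, Aqp8, Aqp9 and Aqp11) were taken by gene name from the 54232 genes counted in mouse angiosarcoma xenografts. They were selected on measured values, since the choice was made with the treatment pattern of Aqp5 in these same tumors known, namely a higher level with trametinib and a higher one still with both drugs, so the treatment values of Aqp5 are given as a description with no test. Whole tumors were profiled by RNA-seq in 4 groups of 3 tumors: vehicle (control), trametinib at 1 mg/kg, cediranib at 3 mg/kg, and the 2 drugs given together (combination). Trametinib inhibits the kinase MEK and cediranib inhibits the tyrosine kinases of the VEGF receptors. Every tumor came from SVR, a single ras-transformed mouse endothelial line, injected under the skin of athymic nude mice that were 8 to 12 weeks old, and the labels give C57BL/6 as the strain. Daily oral dosing began once tumors had established for 3 to 7 days. The labels give ulceration or growth beyond 1 cm as the endpoint, while the study also ran an experiment with a common harvest time. Which of the 2 experiments each sequenced tumor came from, and its time on treatment, was not given. Nude mice lack mature T cells but keep their other host cells, and whole lysates can hold host skin, muscle and blood beside the tumor cells.

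Aquaporins assemble as tetramers in which each subunit carries its own pore. The strict water channels include Aqp1, the main channel of endothelium and red blood cells, Aqp4, which sits in astrocyte end-feet and in the membrane of fast skeletal muscle fibres, and Aqp5, which lies in the apical membrane of salivary, lacrimal and sweat gland cells and of flat alveolar cells. The aquaglyceroporins Aqp3, Aqp7 and Aqp9 also pass glycerol, and are best known from basal keratinocytes, fat cells and liver cells. Aqp8 is found in colon and pancreas, and Aqp11 is an unorthodox member of the endoplasmic reticulum.

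The 12 libraries held 9478865 to 11666094 counts each, so the 3 counts taken as the detection floor equalled 0.251 to 0.349 CPM in 1 library. Levels in CPM (read counts relative to the library total) were scaled by the trimmed mean of M-values (TMM). The titles number separate tumors within a group, and p-values measure the spread between these tumors. Of the 12 genes in a list of endothelial markers, 10 passed the low-count filter, with Tie1, Eng and Cdh5 the most abundant. The composition of the tumors varied. Summed over 12 epidermal markers, the level was 20.6 to 618 CPM in control, 4.02 to 9.71 in trametinib, 44.6 to 2845 in cediranib and 2924 to 4422 in combination tumors, with Krt14, Krt5 and Dsp the most abundant. Flg, Ivl, Krt1, Dsg3 and Perp were at 0 in all 3 trametinib tumors. Summed over 10 skeletal muscle markers, led by Myh4, Acta1 and Myh1, the level was 17929 CPM in control replicate 2 and 25411 in trametinib replicate 2, against 6.67 to 2206 in the other 10 tumors. In bulk tissue, fewer cells of a kind and less RNA per cell cannot be told apart.

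Of the 8 aquaporins, 3 passed the filter on low counts and the other 5 were at or near 0. Compared per length (RPKM, the CPM divided by the kilobases of merged exon), Aqp1 was far above the rest, with a mean of 28.2 RPKM over the 12 tumors, followed by Aqp3 at 3.64 and Aqp5 at 2.23. Aqp11 averaged 0.0150 RPKM. Aqp1 made up 90.9 to 94.3% of the RPKM summed over the 8 genes in control tumors and 60.7 to 83.4% in combination tumors. Below Aqp1 the order depended on the treatment. In control tumors Aqp3 (1.66 to 2.37 RPKM) was above Aqp5 (0.117 to 0.311), and the ranges did not overlap. In trametinib tumors Aqp5 (1.85 to 3.90 RPKM) was above Aqp3 (0.298 to 1.01), again without overlap. In combination tumors the 2 genes overlapped, at 3.79 to 7.37 RPKM for Aqp5 and 3.98 to 10.7 for Aqp3, and in cediranib tumors Aqp3 (0.827 to 9.51) was above Aqp5 (0.146 to 0.269).

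**Figure D1:**
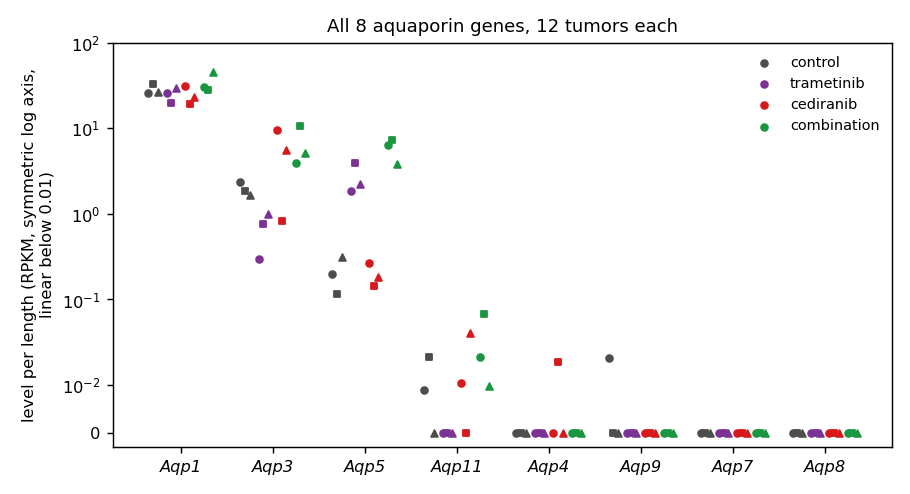
Level per exon length (RPKM, on an axis that is logarithmic above 0.01 and linear below it) of the 8 aquaporin genes in each of the 12 tumors, with 1 point per tumor, coloured by treatment. Aqp1 lies between 19.1 and 44.9 RPKM in all 12 tumors, Aqp3 and Aqp5 change places between control and trametinib tumors, and Aqp4, Aqp7, Aqp8 and Aqp9 sit at or near 0.

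The sequences before the RefSeq start sites of the 3 detected genes are shown because these are the members whose levels could be compared between treatments. RefSeq windows of 300 bases (250 before and 50 after the start, GRCm38.p6) were found for 7 of the 8 members. Both strands were searched for 2 core promoter motifs, the GC box with the letters GGGCGG and the TATA box, which was taken as TATAAA. Letters bound by factors that act downstream of growth signalling were searched as well. For AP-1 these were TGANTCA, and ETS factors were represented by CCGGAAG. For TEAD factors the search used GGAATG. Capitals mark the matches, and the distances are counted back from the start site.
Aqp1, chr6:55336049-55336298, plus strand, with a GC box 190 bases before the start: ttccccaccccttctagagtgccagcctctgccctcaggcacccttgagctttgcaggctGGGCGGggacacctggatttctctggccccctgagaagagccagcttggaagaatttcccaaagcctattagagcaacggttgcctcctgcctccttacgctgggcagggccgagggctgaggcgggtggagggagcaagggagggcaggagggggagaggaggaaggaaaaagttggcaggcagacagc
Aqp3, chr4:41098184-41098433, minus strand, with a GC box on the opposite strand 73 bases before the start and a TATA box 29 bases before it: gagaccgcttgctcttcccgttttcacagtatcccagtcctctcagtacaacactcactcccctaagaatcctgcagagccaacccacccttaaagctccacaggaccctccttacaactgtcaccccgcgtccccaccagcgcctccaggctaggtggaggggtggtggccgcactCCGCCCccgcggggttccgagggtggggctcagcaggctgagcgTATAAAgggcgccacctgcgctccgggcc
Aqp5, chr15:99590982-99591011, plus strand, a stretch of 30 bases with a GC box 34 bases before the start: cgggggtgcgcgGGGCGGggggctgcgagc
The Aqp5 window held GC boxes at 77 and 34 bases before and 38 bases after the start, and no TATA box. The AP-1, ETS and TEAD letters were not in any of the 3 windows. Over the 32851 RefSeq windows of the same length, 35.7% held the GC box, 13.6% the TATA box, 7.81% the AP-1 letters, 8.86% the ETS letters and 14.7% the TEAD letters. A match describes the letters only and was not tested as a binding site.

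Aqp5 (ENSMUSG00000044217, GRCm38 chromosome 15, 99590782 to 99594608, plus strand), the glandular water channel, was close to the floor without trametinib and well above it in every tumor given trametinib. The control tumors had 0.511, 0.304 and 0.808 CPM from 6, 3 and 8 counts, and the cediranib tumors 0.699, 0.378 and 0.478 CPM from 7, 4 and 5 counts. These groups overlapped. The trametinib tumors had 4.81, 10.1 and 5.78 CPM from 53, 87 and 69 counts, and the combination tumors 16.7, 19.2 and 9.84 CPM from 165, 211 and 106 counts. All 6 tumors given trametinib were above all 6 that were not, whereas the combination tumors overlapped the trametinib tumors, since combination replicate 3 lay just below trametinib replicate 2. Aqp5 reached 10 counts only in those 6 libraries, so it passed the low-count filter through the groups where it was high.

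**Figure D2:**
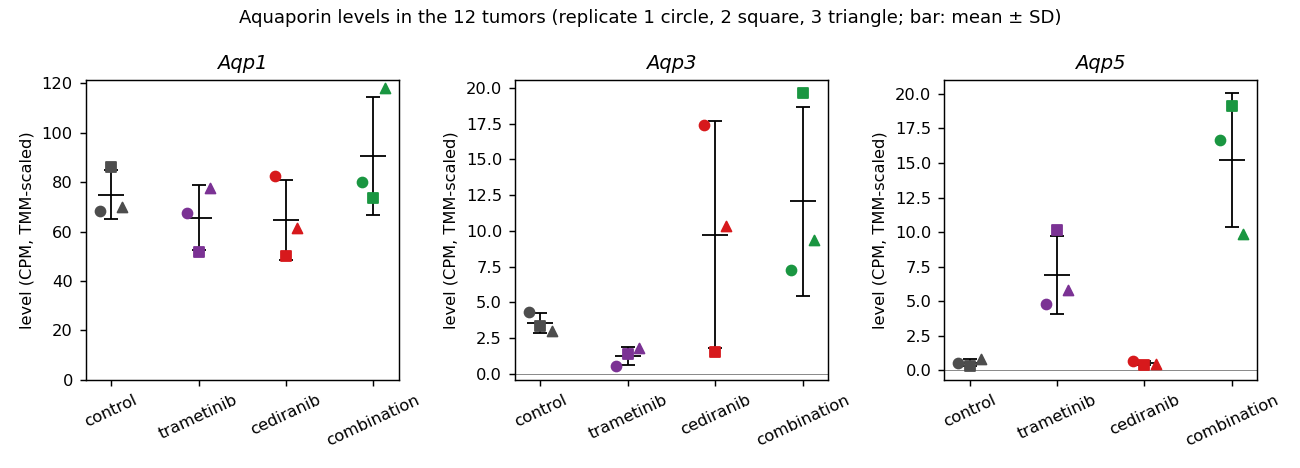
Level (CPM, TMM-scaled) of Aqp1, Aqp3 and Aqp5 in each of the 12 tumors, with the group mean and SD as a bar (n = 3 tumors per group). Aqp5 is 4.81 CPM or more in each tumor given trametinib and 0.808 or less in each of the others, Aqp3 varies most in the cediranib group, and the 4 groups of Aqp1 overlap.

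The group means of Aqp5 were 0.541 ± 0.253 CPM in control, 6.90 ± 2.83 in trametinib, 0.519 ± 0.164 in cediranib and 15.2 ± 4.82 in combination tumors (SD, n = 3). The fitted log2 fold change against control was 3.64 ± 0.43 (SE, 95% interval 2.69 to 4.59) with trametinib, a 12.5-fold difference, and 4.79 ± 0.44 (3.84 to 5.74) with the combination, a 27.6-fold difference. With cediranib alone it was -0.06 ± 0.53 (-1.22 to 1.10). The combination was 2.21-fold above trametinib (log2 1.15 ± 0.34, interval 0.40 to 1.89), and the departure from additive drug effects on the log2 scale was 1.21 ± 0.64 (-0.19 to 2.61). Because Aqp5 was chosen with its pattern known, these errors and intervals describe the spread between tumors and are not a test. The trametinib value rested in part on the muscle-rich tumors: without control replicate 2 and trametinib replicate 2 it was 3.00 ± 0.44. The difference between combination and trametinib was 0.61 ± 1.02 with an epidermal score (the mean log2 CPM of the epidermal markers) in the model. That score was -1.44 to -0.933 in trametinib and 5.10 to 5.69 in combination tumors. Without overlap between the groups, this fit cannot tell skin content and treatment apart.

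High Aqp5 was found both in tumors with little and in tumors with much epidermal RNA. The trametinib tumors, with the lowest epidermal marker sums, had 4.81 to 10.1 CPM of Aqp5, while cediranib replicates 1 and 3, with sums of 2845 and 1757 CPM, had 0.699 and 0.478. Of 11 gland epithelium markers, among which Krt19, Krt18 and Krt8 were the most abundant, the sums were 52.6 to 166 CPM in control, 23.9 to 45.5 in trametinib, 91.4 to 120 in cediranib and 9.10 to 57.3 in combination tumors. These sums were lower in the trametinib tumors than in the control tumors, without overlap, and 12.9% of all tested genes also lay wholly below control. They rested mostly on Krt19 and Krt18, with means of 44.7 and 18.1 CPM over the 12 tumors, beside 1.97 for Krt8. Of the 5 tested genes of the list, 3 were lower and 2 higher with trametinib. Single genes of the list differed in direction: Krt18 was called lower with trametinib, while Krt8 had a mean of 1.17 CPM in control and 3.22 in trametinib tumors and was not called. Of the more specific gland genes, Foxi1 and Pip were at 0 in all 12 tumors, Best2 had group means of 0.0582 CPM in trametinib, 0.0303 in combination and 0 in the other tumors, and Bhlha15 had 0.191 CPM in combination, 0.0638 in cediranib and 0 in the other tumors. Which cells carried the Aqp5 transcripts was not tested.

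**Figure D3:**
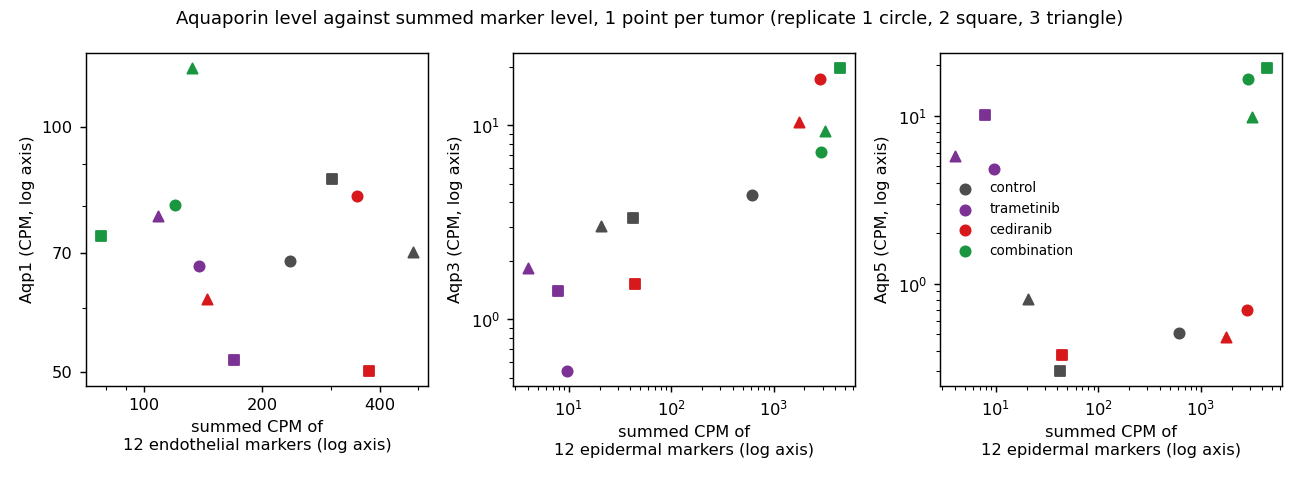
Each point is 1 tumor, with the summed level of 12 endothelial markers (left) or 12 epidermal markers (middle and right) on the horizontal axis and the level of Aqp1, Aqp3 or Aqp5 on the vertical axis, in CPM on logarithmic axes. The 5 tumors with at least 1757 CPM of epidermal markers are the highest in Aqp3, while Aqp5 is high both in trametinib tumors, with at most 9.71 CPM of epidermal markers, and in combination tumors, with at least 2924.

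Aqp5 lies in a cluster of 3 aquaporin genes, and its neighbours in the cluster stayed near 0. Aqp2, the vasopressin-regulated channel of the kidney collecting duct, ends 6.2 kb upstream and had 5 counts over all 12 tumors. Aqp6, an intracellular channel of the same kidney epithelium, starts 6.8 kb downstream and had 4 counts, none of them in a tumor given trametinib. Of the other genes within 100 kb, Gm5808 and AC117831.1 had 5 and 1 counts, and 3 passed the filter. Racgap1, a cytokinesis gene 25.9 kb downstream, was not called with trametinib (log2 fold change 0.37, adjusted p = 0.187 by the quasi-likelihood test of edgeR, adjusted after Benjamini and Hochberg), nor was Faim2, an inhibitor of Fas-mediated death 62.6 kb upstream.

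Asic1, a proton-gated sodium channel that starts 75.8 kb downstream of the end of Aqp5, was called in the same direction. It had 4.17, 6.08 and 4.14 CPM in control tumors, 19.4, 22.9 and 28.5 in trametinib, 4.10, 2.46 and 7.37 in cediranib, and 35.9, 25.1 and 15.1 in combination tumors. The 6 tumors given trametinib were above the 6 others. By edgeR's quasi-likelihood test the log2 fold change was 2.30 ± 0.39 (SE) with trametinib (adjusted p = 0.00489) and 2.40 ± 0.39 with the combination (adjusted p = 0.00487), and the combination did not differ detectably from trametinib (0.10 ± 0.36, adjusted p = 0.917). With the epidermal score in the model the combination value was 1.91 (edgeR adjusted p = 0.214), while over the other alternatives it ranged from 2.07 to 2.66 with every adjusted p at or below 0.0268. The score did not overlap between control and combination tumors, so the fit with it cannot tell skin content and treatment apart.

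**Figure D4:**
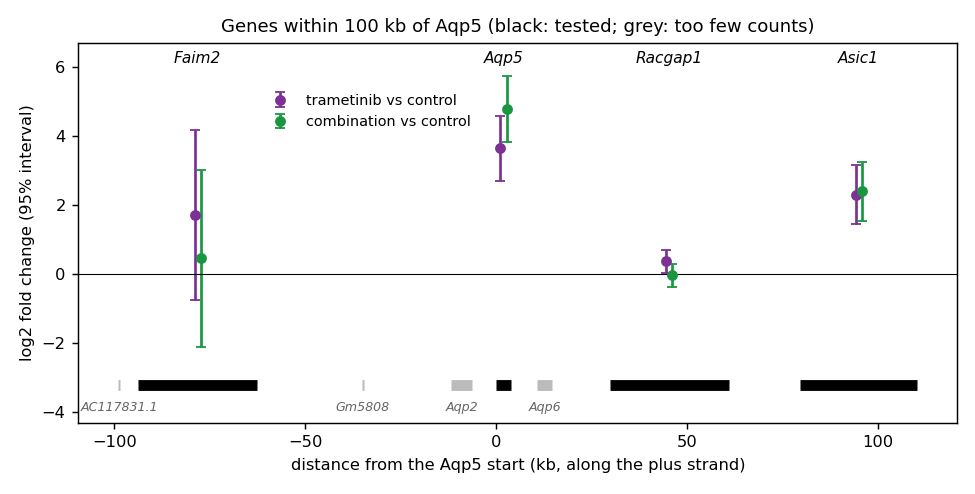
Genes within 100 kb of Aqp5, drawn to scale as bars against the distance from the Aqp5 start (kb), with the fitted log2 fold change (point) and its 95% interval (line) against control for the 4 that passed the low-count filter. Asic1 (2.30 and 2.40) lies above 0 in both comparisons, while the interval of Faim2 spans 0 and the values of Racgap1 are at most 0.37. Aqp5 (3.64 and 4.79), whose pattern was known when the genes were chosen, is drawn as a description and not as a test.

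The genes whose levels followed Aqp5 most closely over the 12 tumors were found by the root mean square difference of mean-centred log2 CPM, for which smaller is more alike and the median over all tested genes was 2.03. The nearest was Nrcam, a neuronal cell adhesion molecule, at 0.596, with a mean of 6.54 CPM in control, 37.5 in trametinib, 3.87 in cediranib and 88.4 in combination tumors. Next came Pcdh19, a protocadherin (0.787), Cdon, a cell surface co-receptor for hedgehog (0.835), Col4a5, a basement membrane collagen chain (0.879), and Mrgprf, an orphan receptor (0.890). All 5 were above the control mean in the trametinib and combination means, but only Nrcam, Cdon and Col4a5 were higher in the combination mean than in the trametinib mean. Since Aqp5 was chosen for its treatment pattern, these genes share that pattern by construction.

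Aqp1 (ENSMUSG00000004655, GRCm38 chromosome 6, 55336432 to 55348555, plus strand), the endothelial water channel, differed little between treatments. Its level was 68.5, 86.3 and 70.1 CPM in control tumors, 67.5, 51.7 and 77.7 in trametinib, 82.3, 50.2 and 61.5 in cediranib, and 80.2, 73.5 and 118 in combination tumors. The group means were 74.9 ± 9.83, 65.6 ± 13.1, 64.7 ± 16.3 and 90.6 ± 24.0 CPM (SD, n = 3), and every pair of groups overlapped. The log2 fold change against control was -0.19 ± 0.22 (SE, interval -0.68 to 0.30) with trametinib, -0.21 ± 0.22 (-0.70 to 0.28) with cediranib and 0.27 ± 0.22 (-0.21 to 0.76) with the combination. By edgeR's quasi-likelihood test the adjusted p was 0.706, 0.999 and 0.469. All 3 intervals lay within a 2-fold change in either direction. Without the 2 muscle-rich tumors the trametinib value turned to 0.07 ± 0.26.

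Some other endothelial genes fell in tumors given trametinib. Of the 10 tested endothelial markers, 4 were called lower with trametinib (Tie1, Vwf, Cdh5 and Pecam1) and 6 with the combination (the same 4 with Kdr and Robo4). Eng, the second most abundant of them, was not called and had a mean of 57.6 CPM in control, 58.7 in trametinib and 51.4 in combination tumors. Their median log2 fold change was -1.82 with trametinib and -2.30 with the combination, beside 0.01 and 0.00 over all tested genes. Expressed per 1000 CPM of summed endothelial markers, Aqp1 was 144 to 291 in control, 305 to 714 in trametinib, 134 to 424 in cediranib and 670 to 946 in combination tumors. The trametinib and the combination tumors lay above the control tumors on that ratio, without overlap. Red blood cells also carry Aqp1. The sum of 7 erythroid markers was 74.0 to 1798 CPM in control, 54.8 to 91.0 in trametinib, 54.0 to 570 in cediranib and 15.1 to 16.3 in combination tumors, so Aqp1 was highest in the group with the least of them, and the part of these cells in the Aqp1 level was not tested. By the same root mean square measure the nearest genes to Aqp1 were Map4k2, a kinase of the stress-activated cascade (0.137), Lrrc8b, a subunit of the volume-regulated anion channel (0.172), the zinc finger gene Zfp212 (0.175) and Fbxw8, a ubiquitin ligase subunit (0.181), beside a median of 0.474.

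Aqp3 (ENSMUSG00000028435, GRCm38 chromosome 4, 41092722 to 41098183, minus strand), the keratinocyte glycerol and water channel, was lowest with trametinib and highest with the combination, with a wide spread. Its level was 4.34, 3.34 and 3.03 CPM in control tumors and 0.545, 1.40 and 1.84 in trametinib tumors, all 3 below the control tumors. The cediranib tumors had 17.4, 1.51 and 10.3 CPM, on both sides of the control range. The combination tumors had 7.27, 19.6 and 9.37 CPM and lay above every control and trametinib tumor. Group means were 3.57 ± 0.685, 1.26 ± 0.659, 9.74 ± 7.95 and 12.1 ± 6.60 CPM (SD, n = 3). The combination was 9.50-fold above trametinib (log2 3.25 ± 0.74 SE, interval 1.64 to 4.86), with an adjusted p of 0.0619 by edgeR's quasi-likelihood test over all 12897 tested genes, just short of the threshold. Against control the combination gave 1.75 ± 0.67 (0.30 to 3.21, adjusted p = 0.116), trametinib a 0.355-fold level (log2 interval -3.12 to 0.13, adjusted p = 0.283) and cediranib 1.44 ± 0.67 (-0.01 to 2.89, adjusted p = 0.999), all by the same test. The combination and cediranib overlapped (0.31 ± 0.63, adjusted p = 0.808).

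Aqp3 and the epidermal markers were high in the same tumors, but not in proportion. The 5 tumors with summed epidermal markers of at least 1757 CPM were the 5 highest in Aqp3, at 7.27 to 19.6 CPM, and the 3 trametinib tumors were the lowest in epidermal markers and, with cediranib replicate 2, in Aqp3. Among the rest the 2 did not rank alike: control replicate 1, with 618 CPM of markers, had 4.34 CPM of Aqp3, control replicate 3, with 20.6, had 3.03, and cediranib replicate 2, with 44.6, had 1.51. Per 1000 CPM of epidermal markers, Aqp3 ran from 2.49 in combination replicate 1 to 458 in trametinib replicate 3. Of the 11 tested epidermal markers, 3 were called higher in combination than in control tumors (Trp63, Sfn and Lor) and 4 higher in combination than in trametinib tumors (Dsp, Ivl, Lor and Sfn). Against control, 10 were higher with the combination and 1, Ivl, was lower, with means of 17.9 CPM in control and 5.83 in combination tumors (not called). Ivl was also the 1 marker called with trametinib against control, where it was lower. With the epidermal score in the model the Aqp3 difference between combination and trametinib was 0.12 (adjusted p = 0.999), that between combination and control turned to -0.37, and that between cediranib and control to -0.09. The nearest genes to Aqp3 were Lce1i, a cornified envelope gene (0.596), Scnn1a, a subunit of the epithelial sodium channel (0.609), Ripk4, a kinase of keratinocyte differentiation (0.618), and Nccrp1, a squamous epithelial gene (0.620), beside a median of 1.47. Each of these 4 genes was at 0 in some tumors, so a few counts set their profiles.

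**Figure D5:**
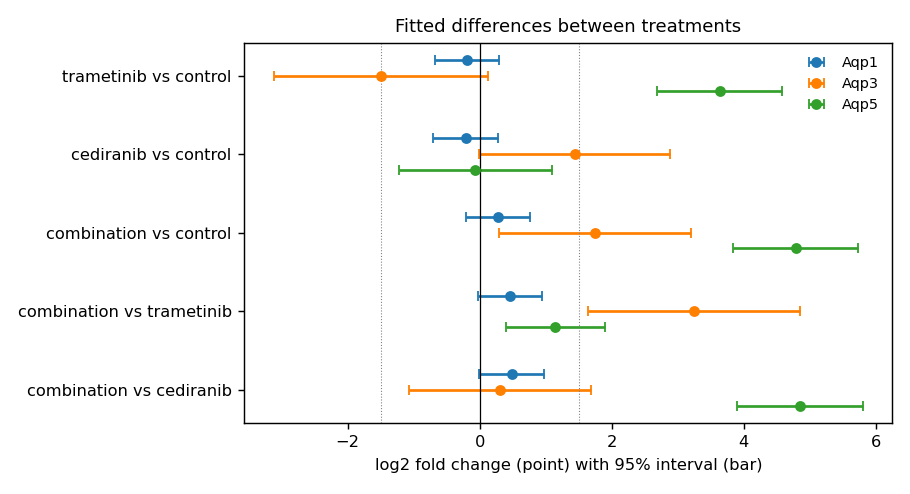
Fitted log2 fold change (point) with its 95% interval (bar) of Aqp1, Aqp3 and Aqp5 in the 5 comparisons between treatments, with dotted lines at 1.5 in either direction. Aqp1 stays within the dotted lines throughout, Aqp3 lies at 3.25 between combination and trametinib, and Aqp5, whose pattern was known when the genes were chosen, lies at 3.64 and 4.79 against control.

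A gene was called where the adjusted p by edgeR's quasi-likelihood test was at most 0.05 and the log2 fold change at least 1.5 in size. Of the 2 aquaporins tested, Aqp1 and Aqp3, 0 were called with trametinib against control, where 2.4% of all tested genes were called, and 0 with the combination against control, where the share was 3.61%. Between combination and trametinib 0 of 2 were called (0.675% of all genes), and between combination and cediranib 0 of 2 (2.45%). With cediranib against control and for the interaction of the drugs 0 of 2 were called, and the share of all genes was 0% in both, although 557 and 909 genes had an unadjusted p under 0.05. At an unadjusted p under 0.05, edgeR counted 1 aquaporin, Aqp3, in combination against control and 1, again Aqp3, in combination against trametinib, and 0 in the other comparisons. Of the 12897 tested genes, 3513 and 2309 had an unadjusted p under 0.05 in those comparisons, beside 2665 with trametinib against control and 2980 in combination against cediranib. DESeq2 called Aqp3 in combination against control and against trametinib (adjusted p = 0.0436 and 0.00014), whereas over all the alternatives its adjusted p ran up to 0.924 and 0.999. In these 2 comparisons DESeq2 called 611 and 347 of all genes, beside 466 and 87 by the main fit. Non-overlap is common at 3 tumors a group: of all tested genes, 12.9% lay wholly below control with trametinib, as Aqp3 did, and with the combination 15.6% lay wholly above control and 12.4% wholly above trametinib.

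The other 5 members were not detectable or barely so at this depth. Aqp11 had 18 counts over 7 of the 12 libraries, split as 3 in control, 0 in trametinib, 5 in cediranib and 10 in combination tumors, of which 7 came from combination replicate 2. Aqp4 had 1 count, in cediranib replicate 2, and Aqp9 had 1 count, in control replicate 1. Aqp7 and Aqp8 had 0 counts in all 12 libraries, which allows a level of up to 0.0239 CPM over the whole set for counting error alone. Aqp4 and Aqp9 overlap genes of the opposite strand, and the strand setting of the counting was not given. The libraries were captured with exome probes, so a 0 also depends on the probes, whose coverage of each aquaporin was not given. Of the 4 remaining mouse aquaporin genes, the lens gene Mip had 9 counts, Aqp2 5, Aqp6 4 and the pancreatic Aqp12 0.

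Markers of some cell types that usually carry the silent members were at uneven levels, which does not show that those cells were present. Aqp4 had 0 counts in both muscle-rich tumors, control replicate 2 and trametinib replicate 2. Of 11 genes of the dystrophin complex that holds Aqp4 at the muscle and glial membrane, led by Dag1, Utrn and Sntb2, 9 were tested, and their median log2 fold change was 0.66 with trametinib, beside 0.01 over all tested genes. Aqp7 and Aqp9 are the channels of fat cells, and of liver cells and neutrophils. The sum of 9 adipocyte markers, led by Pparg, Lipe and Plin1, was 7.94 to 30.3 CPM, that of 8 neutrophil markers, led by Cxcr2, S100a9 and Csf3r, 0.304 to 7.17 CPM with Ly6g, Elane and Retnlg at 0 throughout, and that of 8 macrophage markers, led by Mrc1, Csf1r and Cd163, 164 to 656 CPM.

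Genes that make, store or release glycerol, the second substrate of Aqp3, Aqp7 and Aqp9, were mostly not called. All 12 of the list were tested, with Gk, Gpd2 and Lpl the most abundant, and 1 was called: Dgat2, which completes triglyceride synthesis and is also an epidermal enzyme, with a mean of 5.01 CPM in control and 17.5 in combination tumors (edgeR adjusted p = 0.0124). That count fell to 0 without control replicate 2 and also once the epidermal score entered the fit. The list's median log2 fold change was 0.30 with trametinib, 0.25 with cediranib and 0.27 with the combination, beside 0.01, 0.00 and 0.00 over all tested genes. With cediranib 11 of the 12 were higher and 1 lower, and with trametinib 9 were higher and 3 lower. Some estimates were wide: Plin1, not called, was at 2.20 ± 1.17 (SE) with trametinib and 2.06 ± 1.18 with cediranib.

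Genes of cell volume control and salt transport, which set the osmotic gradients that water follows, included 3 that were called, all lower. Of 25 in the list 22 were tested, with the kinase Wnk1, the osmotic stress factor Nfat5 and the taurine carrier Slc6a6 the most abundant. The share called over all tested genes was 2.4% with trametinib, 3.61% with the combination and 2.45% in combination against cediranib. With trametinib 1 was called, Slc5a3, the myo-inositol carrier, which fell by 1.61 on the log2 scale (SE 0.28, edgeR adjusted p = 0.00583), and the count was 0 without control replicate 1, without trametinib replicate 3, and without the muscle-rich tumors. With the combination 2 were called: Slc12a2, the sodium, potassium and chloride cotransporter of secreting epithelia, fell by 1.71 (SE 0.32, edgeR adjusted p = 0.00821), and Ano1, a calcium-activated chloride channel that works beside Aqp5 in gland secretion, fell by 1.54 (SE 0.38, edgeR adjusted p = 0.0278). The same 2 were called against cediranib, at -1.96 (SE 0.32, edgeR adjusted p = 0.00529) and -1.51 (SE 0.38, edgeR adjusted p = 0.0357). The count was 1 in place of 2 without control replicate 2 or 3 or combination replicate 1 or 2 against control, and without any 1 of the cediranib tumors or combination replicate 1 or 2 against cediranib. Nfat5, the factor that switches on osmolyte carriers, passed the adjusted p but not the fold threshold: its log2 fold change in combination tumors was 0.66 against control (edgeR adjusted p = 0.0285), 0.99 against trametinib (edgeR adjusted p = 0.0269) and 0.71 against cediranib (edgeR adjusted p = 0.0262). Stk39 and Clcn3 were the other 2 genes to pass the adjusted p alone, both at lower levels in combination tumors. The list's median was -0.26 with trametinib and -0.04 with the combination, beside 0.01 and 0.00 over all tested genes, and Cftr had 0 in 3 of the 4 groups. The mean level of Slc12a2 was 136 CPM in control and 41.6 in combination tumors, and that of Ano1 24.8 and 8.49.

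As a check of the drug, 6 genes that ERK, the kinase below MEK, switches on were examined. With trametinib 5 of the 6 were called lower (median log2 fold change -3.26), and with the combination 4 (median -1.92), while 0 were called with cediranib. The summed level of the 6 was 90.5 to 170 CPM in trametinib and 202 to 400 in combination tumors, without overlap, against 469 to 536 in control. Between combination and trametinib 2 were called higher, Dusp6, a phosphatase that turns ERK off (1.79), and Etv5, an ETS factor (1.58), and that count was 0 to 2 when single tumors were left out, with 0 without trametinib replicate 3 or combination replicate 2. The combination tumors had the higher mean of Aqp5 and the smaller fall of these genes, and the relation between them was not tested.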

How the data were processed

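RNA from 12 flash-frozen SVR xenografts (4 groups, n = 3 tumors) was captured with TruSeq RNA Exome probes. Per the labels and the study's methods, the authors aligned paired-end reads to GRCm38 with STAR 2.7.1a and deposited whole-number read counts per gene from featureCounts 1.6.0, with no normalization. Which annotation release was counted, whether by strand, and how multi-mapping reads were treated was not given in the sources used here. The counts carried 54232 gene IDs, of which 54165 were in GENCODE M21.

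From these counts, genes were kept by edgeR 4.0.16's filterByExpr (minimum count 10, total 15), which left 12897, and were scaled by TMM. The quasi-likelihood test was fitted with all 12 tumors and 1 term per group. P-values were Benjamini-Hochberg adjusted over all 12897 genes, a call needed an adjusted p of at most 0.05 and a log2 fold change of at least 1.5, and SEs came from the F statistic. Log2 CPM used a prior count of 2, and RPKM used the deposited merged exon length, UTRs included. The biological coefficient of variation was 27.2%. No 2 libraries were identical, and counts were tested on simulated data first. Intervals and floors cover counting or tumor-to-tumor error only.

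The members, gene lists, marker lists and comparisons were chosen with earlier results of these data known. Genes were named by rule: all members, the remaining aquaporins, genes within 100 kb of Aqp5, the 4 tested genes nearest to each tested member (5 for Aqp5), and in each list the called genes and the 3 most abundant. Alternatives were RLE size factors, library totals alone, no filter, edgeR's likelihood ratio test, DESeq2 1.42.0, only the groups compared, a replicate block, the epidermal score, and each tumor left out. Leaving out the 2 muscle-rich tumors was added after seeing the data. The deviations of same-numbered tumors from their group means had correlations from -0.219 to 0.356 over the 18 pairs. The highest was between the 2 muscle-rich tumors, and tumors of different numbers were not compared. The titles number tumors within a group, so the numbers were not taken as pairing. Gene models came from GENCODE M21 and promoter sequences from RefSeq, and no protein sequences were used here. The result of 1 listed gene is not reported here.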

Additional observations from a re-analysis of the deposited data

How the results depend on the processing

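With 3 tumors a group and a biological coefficient of variation of 27.2%, the interval of Aqp3 spanned more than 2 log2 units in every comparison, and Aqp5 without trametinib rested on 3 to 8 counts a library. Aqp4, Aqp7, Aqp8, Aqp9 and Aqp11 were too low to test. Skin and muscle content varied between tumors, their time on treatment was not given, and for Aqp3 the skin content and the treatment cannot be told apart. The same holds for Aqp5 in combination against trametinib tumors.

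The count of aquaporins called, 0 in each comparison, became 1 (Aqp3) in 4 of the 6 comparisons. Without the low-count filter it was 1 with trametinib against control, with the combination against control, with the combination against trametinib and for the interaction. That fit called 687, 1129, 773 and 261 of all genes there, beside 310, 466, 87 and 0 in the main fit. With DESeq2 and with only the groups compared it was 1 for the combination against control and against trametinib. Of all genes, DESeq2 called 611 and 347 there, and the fits of only the groups compared called 490 and 274. With library totals alone, which moved the median of all genes by 0.12 in that comparison, and with the likelihood ratio test it was 1 for the combination against trametinib. These settings called 115 and 401 of all genes there. The cause of the Aqp3 calls was not tested. Leaving out single tumors gave 0 to 0 in every comparison.

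Leaving out 1 tumor moved Aqp5 with trametinib between 3.27 and 4.01, with cediranib between -0.33 and 0.31, and with the combination between 4.52 and 5.16. It moved Aqp5 in the combination between 0.94 and 1.52 against trametinib and between 4.66 and 5.11 against cediranib, and its interaction between 0.83 and 1.58. Without the 2 muscle-rich tumors Aqp5 was 3.00 with trametinib and 1.85 for the interaction, and with the epidermal score it was 0.61 in combination against trametinib. Aqp1 with trametinib reversed to 0.068 without the muscle-rich tumors. With the epidermal score Aqp3 reversed to -0.087 with cediranib, to -0.37 with the combination against control and to -0.28 against cediranib, and leaving out 1 tumor moved the last between -0.21 and 1.03.

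Asic1, where it was not called, also changed sign: with cediranib to 0.15 without the muscle-rich tumors and between -0.56 and 0.26 with 1 tumor left out, in combination against trametinib to -0.61 with the epidermal score and between -0.22 and 0.37 with 1 left out, and for the interaction to -0.25 with the score, to -0.077 without the muscle-rich tumors and between -0.16 and 0.67 with 1 left out. The cause was not tested.

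With the replicate block, Aqp3 in combination against trametinib was 3.27 (edgeR adjusted p = 0.0845) and Aqp5 with trametinib was 3.59. The block left 0 aquaporins called in every comparison. It changed no call of Aqp1, Aqp3 or Asic1, and took the count of volume and salt genes called in combination against cediranib from 2 to 1. Over the alternatives run, 93 values of Aqp1 and 79 of Aqp3 kept their direction and side of the threshold, and 90 of Aqp5 moved by less than the spread between tumors.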
